A study of Mus musculus with 24 samples.

Results

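The 10 genes Pcp2, Car8, Slc1a6, Itpr1, Cbln1, Cbln3, Neurod1, Zic1, Zic2 and En2 were followed across whole-brain RNA arrays. Mouse cerebellar neurons express these genes, some of which are also expressed in other brain regions. The 10 genes were chosen by name and read from every probe set that carries a single one of these symbols. Of the 10 genes, 9 had such a probe set, out of 18194 genes named on the array, and Itpr1 was not analysed here. The 9 genes have 18 probe sets, and each gene is given by its brightest probe set, the one with the highest mean over the 24 arrays. Levels are log2 intensities after quantile normalisation across arrays, so a difference of 1 is a doubling, and levels are compared between arrays for a given probe set, never between probe sets.

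RNA came from whole brains of 4-month-old mice, on 1 array per sample, with 6 samples in each of 4 groups: aSYN/Hsp70 brains, which the labels give as carrying both modifications, aSYN brains, Hsp70 brains and wt brains. Per the labels, aSYN brains carry aSYN only, read here as an alpha-synuclein transgene, and Hsp70 stands for the heat shock protein of that name. The labels name no strain, promoter, founder line or sex, and whether the 6 samples of a group are 6 mice is not stated, so a p-value here reflects the scatter among samples, which may be technical. In whole-brain RNA, fewer cells of a type, less RNA per cell and less of a region in the sample cannot be told apart.

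The cerebellum holds a dense layer of small granule cells, whose fibres synapse on the large Purkinje cells, the output neurons of its cortex. Purkinje cells express Pcp2, a modulator of G proteins, Car8, a carbonic anhydrase relative that binds the IP3 receptor, and Slc1a6, the glutamate transporter EAAT4. Granule cells release CBLN1, which joins presynaptic neurexins to the GluD2 receptor on Purkinje cells, and make CBLN3, which is secreted together with CBLN1. NEUROD1, ZIC1 and ZIC2 are transcription factors of the granule cell lineage, and EN2 is a homeodomain factor that patterns the midbrain and cerebellum. Car8, Cbln1, Neurod1, Zic1 and Zic2 are also expressed in other brain regions.

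Array medians lay between 458 and 893 intensity units. Each array's median Spearman correlation with the others was 0.883 to 0.973. Below 0.4 in limma's array weights stood 4 arrays, aSYN/Hsp70 replicates 3 and 4 and Hsp70 replicates 3 and 6. Xist and Y-linked probe sets put 2 of 6 aSYN/Hsp70, 4 of 6 aSYN, 3 of 6 Hsp70 and 4 of 6 wt samples as female. An array that is ordinary by these measures, wt replicate 1, stands apart in the cerebellar genes, so the members' differences from wt, and those of the other cerebellar genes named, are given below with and without it.

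The promoters of Pcp2 and Cbln3, the members with a promoter in the RefSeq table that stood highest above the other arrays in wt replicate 1, are shown as they stand in assembly GRCm38.p6, from 250 bases before to 50 after the start, on the minus strand. In them AGGTCA, the core of the element bound by ROR nuclear receptors, and CAGATG, an E-box read by factors such as NEUROD1, were searched on both strands, and matches are in capitals.
Pcp2, chr8:3625498-3625797: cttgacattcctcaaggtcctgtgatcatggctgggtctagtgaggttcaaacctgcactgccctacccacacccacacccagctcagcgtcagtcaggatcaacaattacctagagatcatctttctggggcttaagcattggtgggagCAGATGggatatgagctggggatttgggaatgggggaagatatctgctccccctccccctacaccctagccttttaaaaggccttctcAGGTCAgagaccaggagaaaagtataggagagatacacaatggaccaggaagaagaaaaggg
Cbln3, chr14:55884207-55884506: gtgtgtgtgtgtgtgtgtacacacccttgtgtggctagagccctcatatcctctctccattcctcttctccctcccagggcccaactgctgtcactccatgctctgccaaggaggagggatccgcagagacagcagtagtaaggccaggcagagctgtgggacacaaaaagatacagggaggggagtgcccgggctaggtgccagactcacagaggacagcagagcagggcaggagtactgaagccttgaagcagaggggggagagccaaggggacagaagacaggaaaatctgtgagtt
The Pcp2 window holds CAGATG at position 151 and AGGTCA at position 239, counted from its first base, and the Cbln3 window holds neither. It is the window of 1 of 4 Pcp2 starts, of which another holds the same 2 matches, another AGGTCA alone and another neither. Of 32851 promoters of that length, 16.3% hold AGGTCA and 17.2% hold CAGATG, so either match is common. The table has promoters for 5 of the 9 genes (Pcp2, with 4 starts, Cbln3, Neurod1, Zic1 and Slc1a6).

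Pcp2 (chr8:3623369-3625547) varied more between arrays of the same group than nearly every other probe set. Its lowest, median and highest levels were 5.66, 8.59 and 11.52 in aSYN/Hsp70 brains, 5.39, 8.54 and 9.57 in aSYN brains, 5.18, 7.31 and 12.13 in Hsp70 brains and 5.41, 9.58 and 14.45 in wt brains. All 4 ranges overlap, and the top value of each of 3 groups is a lone array, namely aSYN/Hsp70 replicate 4, Hsp70 replicate 4 and wt replicate 1. The SD within groups was 2.39, against a median of 0.316 over all 27022 tested probe sets, at percentile 99.97 of them. Without wt replicate 1 it was 2.09, still at percentile 99.95. In deposited units, wt replicate 1 read 21741 and the other 23 arrays had a median of 326. On 10 of those 23 arrays Pcp2 lay below the 40th percentile of all probe sets of the array.

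Car8 (chr4:8141493-8239041) held a narrower range. Its lowest, median and highest levels were 9.75, 10.75 and 10.85 in aSYN/Hsp70 brains, 9.90, 10.89 and 11.27 in aSYN brains, 10.34, 10.62 and 11.56 in Hsp70 brains and 10.29, 10.78 and 13.69 in wt brains. Apart from the 13.69 of wt replicate 1, the wt brains reached 11.23, within the ranges of the Hsp70 and aSYN brains. Slc1a6 (chr10:78780086-78814825), whose transporter clears glutamate around Purkinje cell synapses, had lowest, median and highest levels of 9.94, 10.31 and 10.82 in aSYN/Hsp70 brains, 10.20, 10.35 and 10.56 in aSYN brains, 9.79, 10.26 and 10.84 in Hsp70 brains and 10.05, 10.38 and 11.79 in wt brains. Here too the wt maximum was replicate 1, and the next highest wt brain read 10.52.

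Cbln1 (chr8:87468853-87472592) was among the steadier members outside that array. Its lowest, median and highest levels were 11.68, 12.08 and 12.46 in aSYN/Hsp70 brains, 11.73, 11.97 and 12.21 in aSYN brains, 11.69, 12.12 and 12.58 in Hsp70 brains and 11.51, 11.91 and 14.42 in wt brains. Its SD within groups was 0.593 over 24 arrays and 0.297 without wt replicate 1, at percentiles 78.6 and 46.5 of all probe sets. All 3 Cbln1 probe sets were highest in wt replicate 1. Cbln3 (chr14:55878920-55884256) was dim, below the 40th percentile on 18 of the 23 other arrays, and its brightest probe set fell under the filter of the fit. Its lowest, median and highest levels were 6.24, 7.81 and 10.08 in aSYN/Hsp70 brains, 5.03, 7.10 and 8.73 in aSYN brains, 5.04, 7.97 and 9.41 in Hsp70 brains and 6.28, 8.23 and 11.72 in wt brains. Its second probe set read 13.66 in wt replicate 1, against at most 10.97 on the other arrays.

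Neurod1 (chr2:79452637-79456636), a basic helix-loop-helix factor needed for granule cell differentiation, had lowest, median and highest levels of 10.90, 11.19 and 11.38 in aSYN/Hsp70 brains, 10.52, 11.25 and 11.83 in aSYN brains, 10.96, 11.20 and 11.95 in Hsp70 brains and 10.86, 11.20 and 13.21 in wt brains. The 4 medians differ by less than the arrays within any group do, and the groups overlap. Zic1 (chr9:91358058-91365768) behaved differently, with low rather than high arrays in the groups that carry Hsp70. Its lowest, median and highest levels were 11.94, 13.16 and 13.92 in aSYN/Hsp70 brains, 13.33, 13.39 and 13.91 in aSYN brains, 12.05, 13.40 and 13.79 in Hsp70 brains and 13.27, 13.57 and 15.02 in wt brains. Below the wt range lay 3 aSYN/Hsp70 and 2 Hsp70 arrays, and 0 aSYN arrays. All 4 arrays of low limma weight were among them, aSYN/Hsp70 replicates 3 and 4 and Hsp70 replicates 3 and 6.

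Zic2 (chr14:122475384-122480328) had lowest, median and highest levels of 8.05, 9.42 and 9.93 in aSYN/Hsp70 brains, 8.43, 9.34 and 9.64 in aSYN brains, 8.90, 9.15 and 9.70 in Hsp70 brains and 8.50, 9.04 and 10.08 in wt brains. It was the member with the smallest lead of wt replicate 1 over the next array, 0.14. En2 (chr5:28165696-28172190) was dim, under the filter of the fit, with lowest, median and highest levels of 6.27, 8.25 and 9.42 in aSYN/Hsp70 brains, 7.26, 7.97 and 8.60 in aSYN brains, 5.50, 8.02 and 9.53 in Hsp70 brains and 7.63, 8.38 and 10.36 in wt brains. All En2 ranges overlap, and 16 of the 23 arrays other than wt replicate 1 had it below the 40th percentile.

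**Figure D1:**
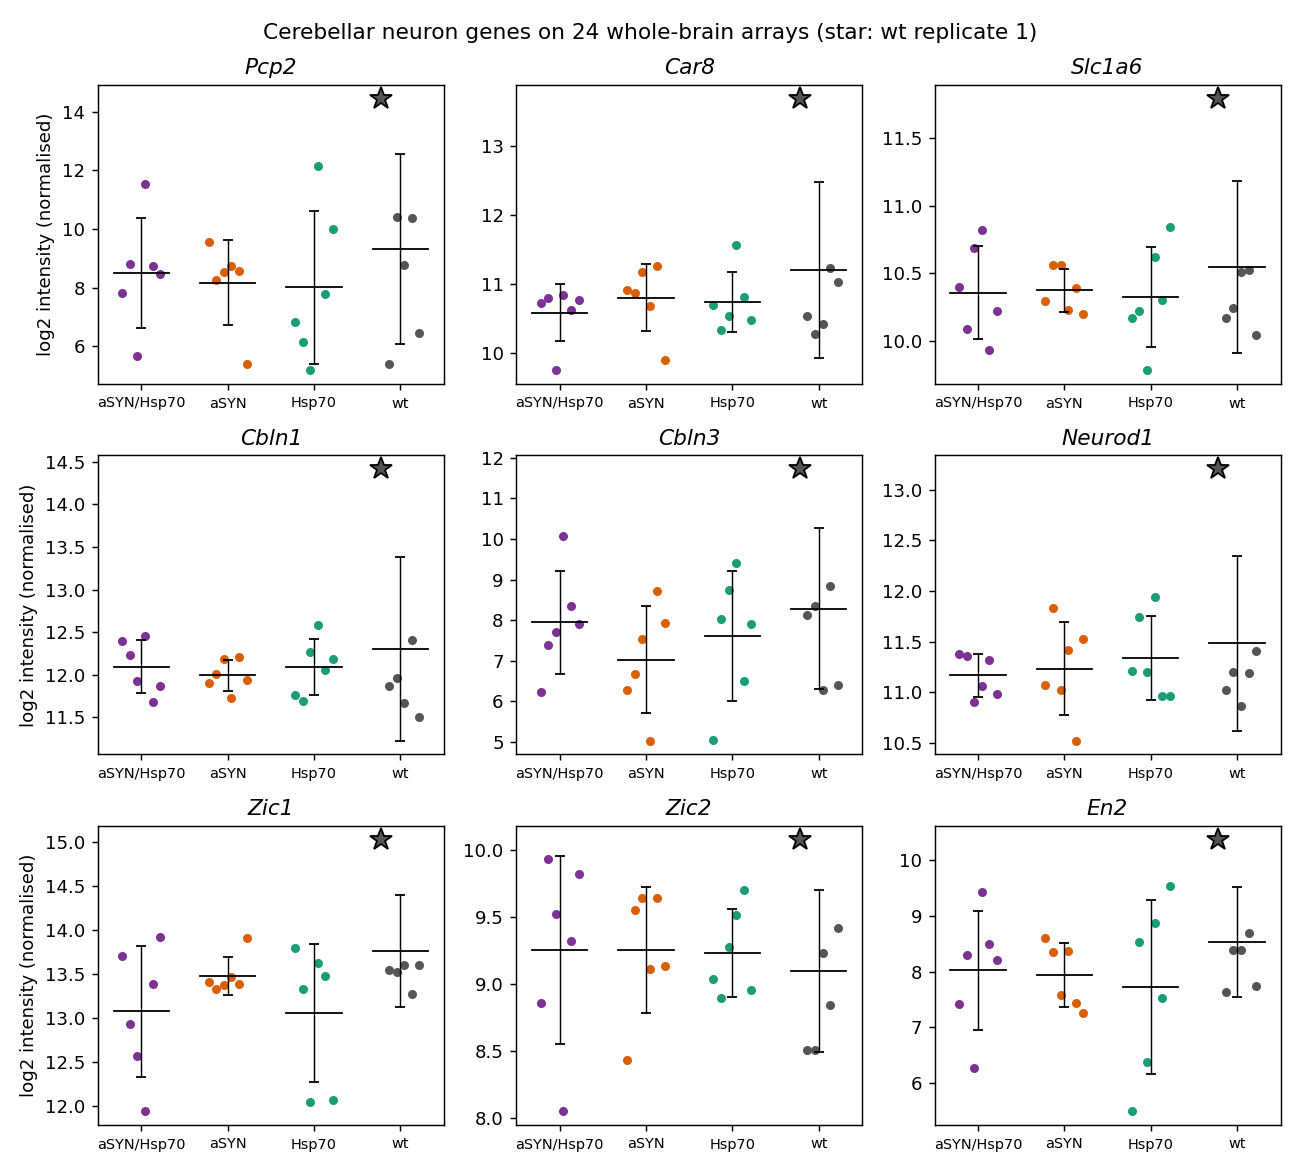
Normalised log2 intensity (vertical axis, a separate scale per panel) of the 9 genes in the 6 arrays of each group, with the group mean (line) and SD (bar); the star is wt replicate 1. The star is the highest point of the 24 in all 9 panels, 14.45 for Pcp2 and 13.69 for Car8.

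In wt replicate 1 every one of the 9 genes was at its highest of the 24 arrays, while that array was highest for 752 of 18193 named genes with a probe set other than a control (4.13%). Its intensity over the median of the other 23 arrays was 66.7-fold for Pcp2, 16.5-fold for Cbln3, 7.71-fold for Car8, 5.37-fold for Cbln1, 5.20-fold for En2, 4.16-fold for Neurod1, 3.02-fold for Slc1a6, 2.91-fold for Zic1 and 1.84-fold for Zic2. Across the members' 18 probe sets the array was highest in 15, and the exceptions were 2 dimmer probe sets of Car8 and the dimmest of Pcp2. The array's own measures were ordinary, with a median intensity of 494, a limma weight of 1.08 and a median Spearman correlation with the other arrays of 0.968.

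Other genes of cerebellar neurons were high on the same array. The following are named after their values were seen. Gabra6, the GABA-A receptor subunit of granule cells, read 14.28 in wt replicate 1, against a median of 6.92 and a maximum of 11.34 on the other arrays, and was below the 40th percentile on 19 of those 23. Fat2, a protocadherin of granule cell fibres, read 11.12 in wt replicate 1 against a median of 6.19, and Ppp1r17, a Purkinje cell phosphatase inhibitor, read 12.74 against 8.32. These 3 genes were thus brightest on this array. Not every granule cell gene was so, as Cdh15 was 7th highest there and below the 40th percentile on 1 of the other 23 arrays. Ranked among all named genes by the lead over the next highest array, the first 7 were Gabra6, Fat2, Ppp1r17, Pcp2, Car8, Cbln1 and Cbln3.

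By list, wt replicate 1 was the highest array for 12 of 16 other Purkinje cell genes, 6 of 14 other granule cell genes, 2 of 5 Bergmann glia genes, 1 of 6 genes of other cerebellar interneurons and nuclei and 1 of 17 family members and partners of the 9 genes. Among lists of other regions it was highest for 6 of 9 striatal, 5 of 7 thalamic, 2 of 5 hindbrain, 1 of 5 olfactory bulb and 0 of 8 hippocampal and cortical genes. The median excess over the other arrays was 2.06 for the 9 genes, 0.55 for granule cell and 0.49 for Purkinje cell genes. It was 0.16 for Bergmann glia genes, -0.00 for interneuron and nuclear genes and -0.03 for family members and partners. Among other regions it was 0.64 for hindbrain, 0.45 for thalamic, 0.38 for olfactory bulb and 0.34 for striatal genes, and -0.33 for hippocampal and cortical genes. Pituitary genes, 4 in all, were also high there (median excess 2.73) but highest on other arrays. Among granule cell genes Cdh15, Cadps2, Nfix and Gabrd were not highest in wt replicate 1, and the last lay 0.14 above the median of the others. The part of regional content in these values was not tested.

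**Figure D2:**
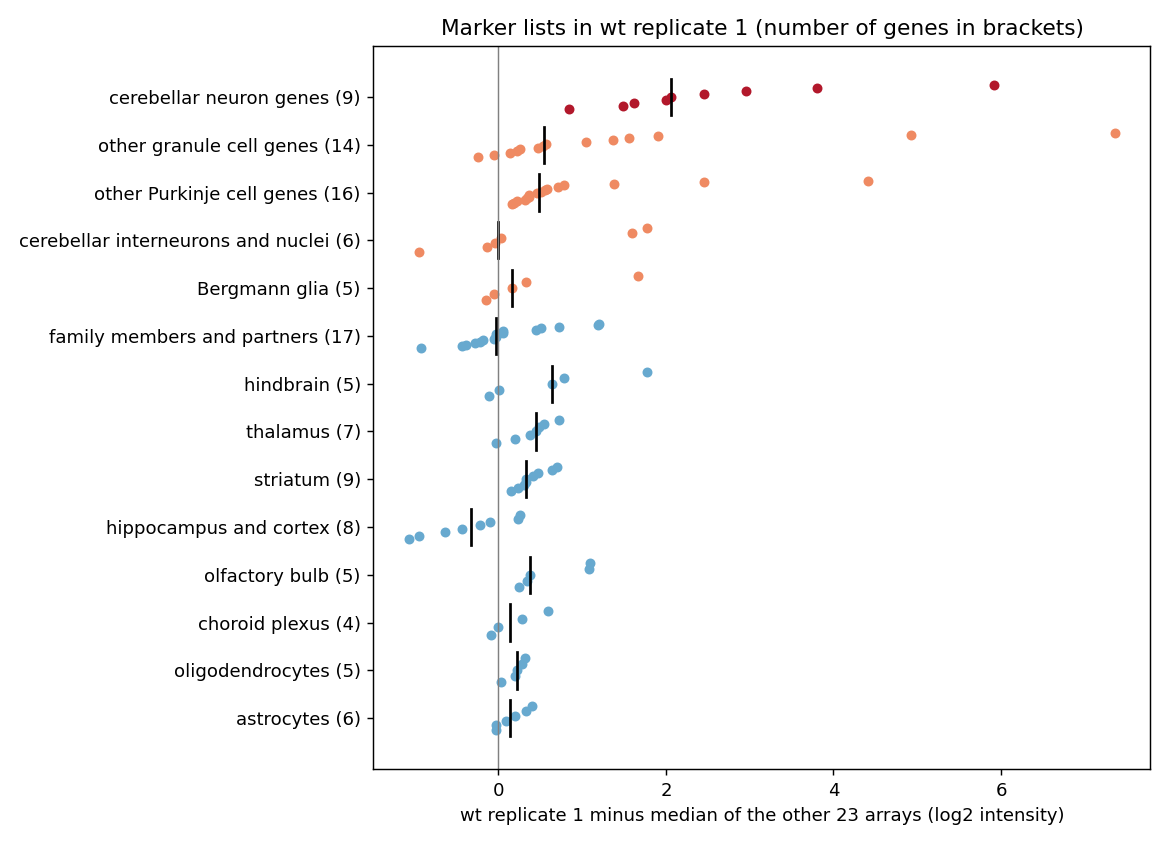
Level of each gene in wt replicate 1 minus its median on the other 23 arrays (horizontal axis, log2 intensity) by marker list (vertical axis, number of genes in brackets); points are genes and black lines list medians. The 9 genes have a median of 2.06 and the hippocampal and cortical genes one of -0.33.

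After wt replicate 1, Hsp70 replicate 4 was the second highest array for 4 members (Pcp2, Cbln1, Car8 and Neurod1), beside 2.61% of all named genes. Hsp70 replicate 6 was second for 2 members, beside 7.41% of all. In the group with both modifications, replicate 4 was second for 1 member, Cbln3, had 2 arrays above it for 4 members and was the lowest of all arrays for 2. That array was second for 7.23% and highest for 19.5% of all named genes, and its limma weight was 0.124. Gabra6 read 10.46 in aSYN/Hsp70 replicate 4 and 11.34 in Hsp70 replicate 4, its highest levels below wt replicate 1.

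No member passed the test in any comparison of genotypes. In the comparison of aSYN/Hsp70 with wt brains, 0 of 7 tested members had a limma adjusted p under 0.05 (0% of all probe sets) and 0 an unadjusted p under 0.05 (14.5% of all). In aSYN against wt brains 0 of 7 were called (0.0037% of all) and 0 at the unadjusted threshold (5.17%), and in Hsp70 against wt brains 0 of 7 (0%) and 0 (4.83%). All the ranges of the 7 members overlapped between each of these groups and wt, where ranges were separate for 0.888%, 1.17% and 0.27% of all probe sets in the same order of comparisons. These 3 comparisons share the wt arrays, replicate 1 included.

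Against wt, 6 of the 7 members were lower on average in each of the 3 groups, Zic2 being the exception, while 55.4%, 50.1% and 53.4% of all probe sets were lower in aSYN/Hsp70, aSYN and Hsp70 brains. The median difference of the 7 was -0.31 in aSYN/Hsp70, -0.28 in aSYN and -0.22 in Hsp70 brains, beside medians of -0.04, -0.00 and -0.02 over all probe sets. Without wt replicate 1 the 3 medians were 0.06, 0.10 and 0.04, and 5 of 7 members were higher than wt in each. Thus the direction of the member medians against wt rested on that array, and 0 of 7 were called without it as well. At an unadjusted limma p under 0.05, the counts without it were 0 of 7 in aSYN/Hsp70 (11.7% of all probe sets), 0 in aSYN (4.74%) and 0 in Hsp70 brains (3.91%).

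Gene by gene, Pcp2 was -0.81 in aSYN/Hsp70, -1.14 in aSYN and -1.30 in Hsp70 brains relative to wt (SE 1.32 each), and 0.22, -0.11 and -0.27 without wt replicate 1. On its brightest probe set Car8 depended on the same array, with -0.61, -0.40 and -0.46 over all arrays (SE 0.41) and -0.11, 0.10 and 0.04 without it. The second tested Car8 probe set, for which that array was 3rd highest, moved less. It was -0.10, -0.24 and -0.28 over all arrays, and -0.04, -0.17 and -0.21 without wt replicate 1. Cbln1 differed by -0.21, -0.31 and -0.21 (SE 0.33), which became 0.21, 0.11 and 0.21. Without the array, the 95% confidence interval of the Cbln1 difference in aSYN/Hsp70 brains ran from -0.15 to 0.58.

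Neurod1 was -0.31 in aSYN/Hsp70, -0.25 in aSYN and -0.15 in Hsp70 brains relative to wt (SE 0.30), and 0.03, 0.10 and 0.20 without wt replicate 1. For Slc1a6 the differences were -0.19, -0.17 and -0.22 (SE 0.23), and 0.06, 0.07 and 0.02 without it. Zic2 was 0.15, 0.16 and 0.13 (SE 0.30), and 0.35, 0.35 and 0.33 without it. By brightest probe set, only Zic1 and Pcp2 of the 7 had a lower mean than wt in Hsp70 brains both with and without wt replicate 1. The second tested Car8 probe set was lower both ways too, at -0.28 and -0.21.

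Zic1 came nearest to the threshold. Its difference from wt was -0.70 in Hsp70 brains (SE 0.35, limma adjusted p = 0.881) and -0.68 in aSYN/Hsp70 brains (SE 0.35, limma adjusted p = 0.364), and -0.28 in aSYN brains. Without wt replicate 1 the values were -0.45, -0.43 and -0.03. The dimmer Zic1 probe set, also tested, was -0.28 in Hsp70, -0.57 in aSYN/Hsp70 and -0.19 in aSYN brains. Without wt replicate 1 it was -0.01, -0.30 and 0.08. On the brightest probe set the lowest Zic1 levels were 11.94 in aSYN/Hsp70 replicate 4 and 12.05 in Hsp70 replicate 3. The limma weights of these arrays were 0.124 and 0.251. Without the 4 arrays of low weight, but with wt replicate 1 kept, the Zic1 differences from wt were -0.27 in aSYN/Hsp70 and -0.20 in Hsp70 brains. The wt mean of Zic1 was 13.76 with wt replicate 1 and 13.50 without it, and no fit left out that array and the 4 together. Without the 4 arrays, the difference between aSYN/Hsp70 and aSYN brains was 0.01 in place of -0.40.

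For the dim Cbln3 and En2, a fit with no filter on dim probe sets gave differences from wt of -0.34 in aSYN/Hsp70, -1.26 in aSYN and -0.68 in Hsp70 brains for Cbln3 (SE 0.87) and of -0.51, -0.60 and -0.81 for En2 (SE 0.61). Without wt replicate 1 they were 0.35, -0.57 and 0.01 for Cbln3 and -0.14, -0.23 and -0.44 for En2. The second Cbln3 probe set was -1.75, -1.13 and -0.97 over all arrays, and -0.72, -0.10 and 0.06 without wt replicate 1. None had an unadjusted p under 0.05 in that fit.

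**Figure D3:**
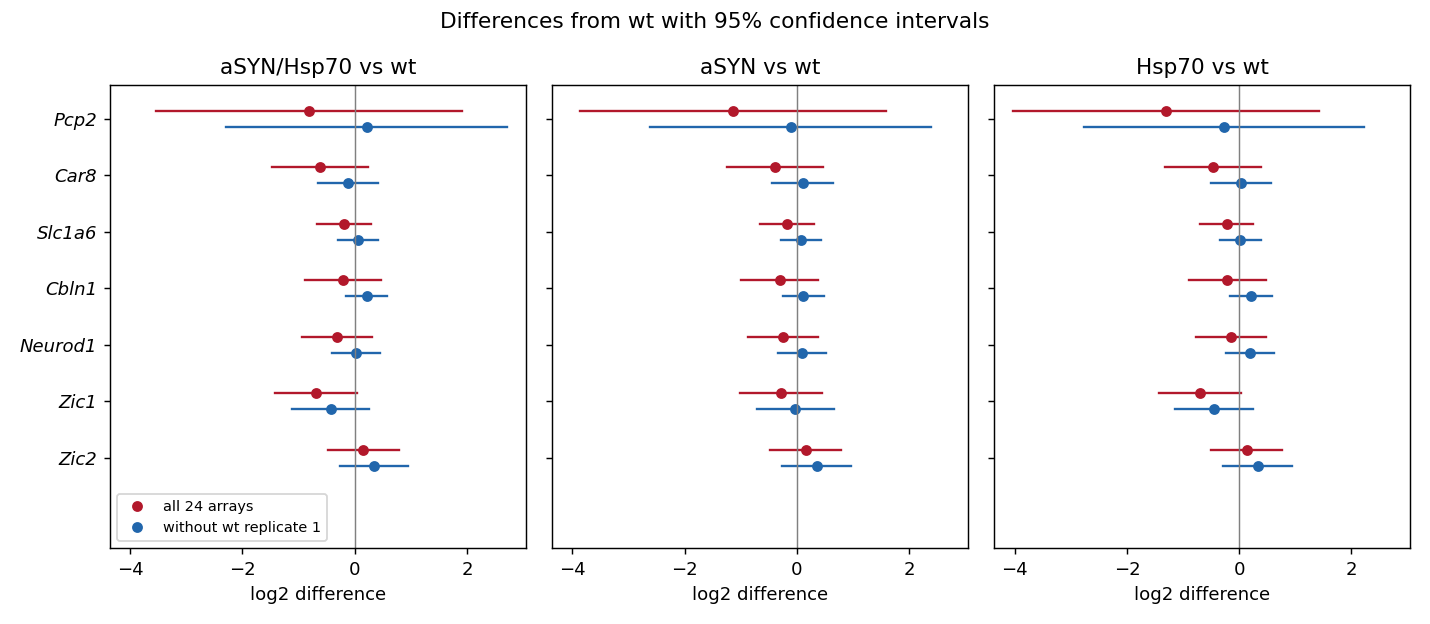
Log2 difference from wt (horizontal axis) of the 7 tested members in aSYN/Hsp70, aSYN and Hsp70 brains, as estimate and 95% confidence interval from limma, with all 24 arrays (upper line of each pair) and without wt replicate 1 (lower line). Every interval spans 0, and Car8 shifts from -0.61 to -0.11 in the left panel.

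In comparisons that use no wt array, that array enters only by the shared normalisation, dim filter, choice of brightest probe set and estimate of spread. Between aSYN/Hsp70 and aSYN brains, 0 of 7 members were called (0.718% of all probe sets) and 0 had an unadjusted p under 0.05 (19.6%), with 5 of 7 lower and differences from -0.40 for Zic1 to 0.32 for Pcp2. Between aSYN/Hsp70 and Hsp70 brains, 0 of 7 were called (0% of all) and 0 passed unadjusted (9.62%), with differences from -0.17 for Neurod1 to 0.49 for Pcp2. The medians were -0.02 and 0.02. Left out of the fit, wt replicate 1 changed neither count, again 0 of 7 at an unadjusted p under 0.05 beside 19% and 9.27% of all. Ranges overlapped for all 7 members in both comparisons, being separate for 2.05% and 0.311% of all probe sets. The dimmest Pcp2 probe set was 1.37 higher in aSYN/Hsp70 than in aSYN brains in the fit with no filter (limma adjusted p = 0.295), while the brightest one differed by 0.32. In that fit 3 of 108 combinations of a member probe set and a comparison had an unadjusted p under 0.05. The other 2 belong to the dimmest Car8 probe set, at 1.45 in aSYN/Hsp70 against Hsp70 brains (limma adjusted p = 0.578) and -1.37 in Hsp70 against wt brains (limma adjusted p = 0.950, and -1.30 without wt replicate 1).

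The interaction, the aSYN difference in the presence of Hsp70 minus that in its absence, was called for 0 of 7 members (0% of all) and reached an unadjusted p under 0.05 for 0 (8.13%). Its median over the 7 was 0.25, with Pcp2 highest at 1.62 (SE 1.86), and -0.11 without wt replicate 1, where Pcp2 was at 0.60 and 0 of 7 had an unadjusted p under 0.05 (7.5% of all).

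After removal of the group means, levels of most members were positively correlated across arrays. Of the 36 pairs of the 9 genes, 34 had a positive Pearson correlation over the 24 arrays, with a median r of 0.48 and a median Spearman rho of 0.316. By permutation within groups with Benjamini-Hochberg adjustment over the 36 pairs, 7 pairs passed 0.05 by Pearson and 5 by Spearman. Most of this went with wt replicate 1. Without it 22 pairs were positive, the median r was 0.144 and 1 pair passed.

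That pair was Pcp2 and En2, with r = 0.781 and rho = 0.777 over 24 arrays (permutation p = 4e-05 each, adjusted p = 0.00144) and r = 0.730 and rho = 0.729 without wt replicate 1 (adjusted p = 0.0191 and 0.00612). Without the 2 arrays farthest from the Pcp2 median, wt replicate 1 and Hsp70 replicate 4, r was 0.709. With all 24 arrays kept, r was positive within each of the 4 groups. It was 0.971 in aSYN/Hsp70, 0.678 in aSYN, 0.657 in Hsp70 and 0.957 in wt brains. Cbln1 and Car8, by contrast, had r = 0.849 and rho = 0.709 over 24 arrays (permutation p = 0.00229 and 0.00057, adjusted p = 0.0151 and 0.0103), and r = 0.481 without wt replicate 1 (adjusted p = 0.169) and 0.355 without the 2 farthest arrays. The relation of Cbln1 and Car8 thus no longer passed without that array. Its r was also positive within each group, 0.381 in aSYN/Hsp70, 0.556 in aSYN, 0.713 in Hsp70 and 0.945 in wt. The pairs share arrays and normalisation, and En2 and Pcp2 were both dim on many arrays.

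**Figure D4:**
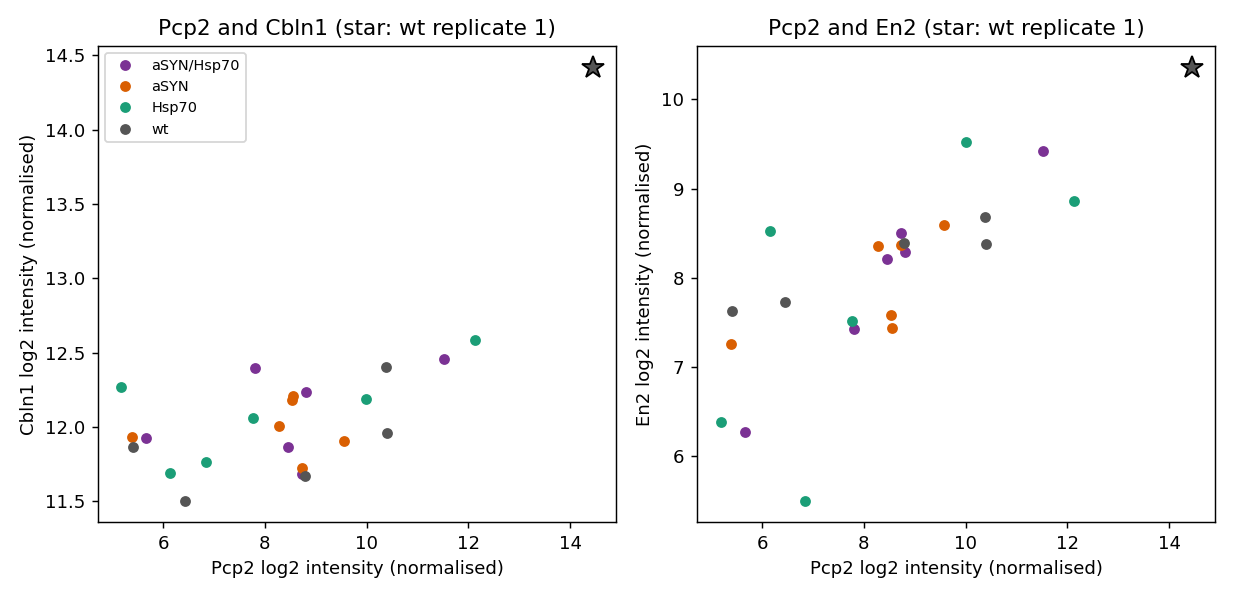
Normalised log2 intensity of Cbln1 (left) and En2 (right) against Pcp2 on the 24 arrays, coloured by group, with wt replicate 1 as a star. En2 follows Pcp2 also among the circles (r = 0.730 without the star, after removal of group means), whereas the star stands 1.83 above every other array in Cbln1.

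The likeness of other genes to the members also went with wt replicate 1. By Pearson r with the mean of the 7 tested members, group means removed, over 24 arrays, the 5 nearest of 12922 genes were Gdf10, a growth factor of Bergmann glia (0.817), Hpcal1, a calcium sensor of Purkinje cells (0.810), Ppp1r17 (0.792), Calb1, the Purkinje cell calcium buffer calbindin (0.787), and Chn2, a Rac-regulating protein (0.784). All but Hpcal1 are on a cerebellar list. The members entered that mean unscaled, so Pcp2 weighed most in it. The SD within groups was 2.39 for Pcp2 and next largest for Car8, at 0.745. Without wt replicate 1 it was 2.09 for Pcp2 and next largest for Zic1, at 0.570. The median r of all genes was 0.03 and the 95th percentile 0.370. Without wt replicate 1 the same 5 genes had r of 0.557, 0.528, 0.469, 0.270 and 0.437 and ranked 56, 97, 244, 1768 and 373. The 5 nearest genes were then Timm17b, Sf3a3, Atp6v0b, Rp9 and Dennd6b, of which 0 were on a cerebellar list.

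Of the other cerebellar lists, 0 genes were called higher or lower in any of the 6 comparisons, among 11 tested granule cell, 14 Purkinje cell, 5 interneuron and nuclear, 5 Bergmann glia and 14 family or partner genes. In aSYN/Hsp70 against wt brains, 13 of 14 Purkinje cell genes were lower, with a median of -0.22 beside -0.04 over all probe sets, and 6 had an unadjusted p under 0.05, where 55.4% of all probe sets were lower and 14.5% had such a p. Without wt replicate 1, the highest array for 12 of 16 named Purkinje cell genes, 9 of 14 were lower, with a median of -0.13 beside -0.04, and 4 had an unadjusted p under 0.05 (11.7% of all). Foxp2, a transcription factor, averaged 11.97 ± 0.33 in aSYN/Hsp70 and 12.42 ± 0.25 in wt brains (SD, n = 6, difference -0.46, limma adjusted p = 0.221, and -0.37 without wt replicate 1), and Rora, the nuclear receptor needed for Purkinje cell maturation, averaged 13.08 ± 0.13 and 13.34 ± 0.12 (difference -0.27, limma adjusted p = 0.228, and -0.22 without it). Both are also expressed outside the cerebellum, and the 9 striatal and 7 thalamic genes were lower in aSYN/Hsp70 than in wt brains too, with medians of -0.21 and -0.43, and of -0.17 and -0.37 without wt replicate 1. How far regional content entered the Purkinje cell values was not tested. Mtss1, a membrane-bending protein of Purkinje dendrites, differed by -0.30 between aSYN/Hsp70 and aSYN brains (limma adjusted p = 0.106).

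Among granule cell genes the smallest p belonged to Mab21l1, which averaged 9.44 ± 0.28 in aSYN/Hsp70, 8.99 ± 0.40 in aSYN, 8.70 ± 0.39 in Hsp70 and 9.55 ± 0.67 in wt brains (interaction 1.31, limma adjusted p = 0.264, and 1.06 without wt replicate 1). Gabrd differed by -0.32 between aSYN/Hsp70 and wt brains (limma adjusted p = 0.297, and -0.31 without it) and Pax6 by 0.97 in the interaction (limma adjusted p = 0.540, and 0.81 without it). Slc1a3, the glutamate transporter GLAST of Bergmann glia and astrocytes, was nearest to a call, at 14.22 ± 0.09 in aSYN/Hsp70 and 13.89 ± 0.06 in aSYN brains (SD, n = 6, difference 0.33, limma adjusted p = 0.0512). It averaged 14.06 in Hsp70 and 14.15 in wt brains. In the fit without wt replicate 1, on the same normalised values, only the estimate of spread changed. The same difference between aSYN/Hsp70 and aSYN brains then had a limma adjusted p of 0.0372. The other Bergmann glia genes with the smallest p were Septin4, at -0.25 in the same comparison (limma adjusted p = 0.178), and Hopx, at 0.55 in Hsp70 against wt brains (limma adjusted p = 0.881, and 0.57 without wt replicate 1).

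Of the interneuron and nuclear genes, Eomes, a factor of unipolar brush cells, was 1.20 higher in aSYN/Hsp70 than in aSYN brains (limma adjusted p = 0.231), Tbr1 differed by -0.60 there (limma adjusted p = 0.262) and Nxph1 by 0.23 from wt in aSYN/Hsp70 brains (limma adjusted p = 0.340, and 0.24 without wt replicate 1). Eomes and Tbr1 are also made in the olfactory bulb and cortex. The family and partner genes nearest to a call lay in aSYN/Hsp70 against aSYN brains, namely Gpsm1, a relative of Pcp2 among G-protein modulators, at 0.44 (limma adjusted p = 0.0887), Neurod6 at -0.59 (limma adjusted p = 0.161) and Grid1 at -0.27 (limma adjusted p = 0.189). For Foxp2, Rora, Gabrd, Septin4 and Tbr1 the lowest of the 24 arrays was aSYN/Hsp70 replicate 4, whose limma weight was 0.124. That array was the highest for Pax6, and the differences of these genes without it are not given here. None of the genes named from these lists passed the adjusted threshold over all 24 arrays. Slc1a3 alone of them did without wt replicate 1, in aSYN/Hsp70 against aSYN brains, where 168 of 27022 probe sets passed.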

How the data were processed

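The authors deposited linear intensities, 1 per probe set and array, for 24 Affymetrix arrays, and each array's mean without the lowest and highest 2% of its 45101 values was 2500. Which program summarised the probes is not given in the sources used, and detection calls were not used. Values were transformed as log2(intensity + 16) and quantile normalised. The offset understates differences of dim probe sets. The 64 control probe sets and the dimmest 40% were left out, which leaves 27022 probe sets, among them 12 of the 18 of the members. All 24 arrays entered a joint linear model of the 4 group means, from which the 6 comparisons were drawn as contrasts (lmFit and eBayes of limma 3.58.1, run in R 4.3.3), with Benjamini-Hochberg adjustment over the 27022 and a call at 0.05. The fit was tested on simulated data.

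The 10 members, the marker lists and the tests were chosen with earlier results of these data known. Besides the members, the text names, per cerebellar list, genes called in any comparison and the 3 smallest p-values, and the 5 genes most correlated with the members. Genes named from wt replicate 1 were chosen after their values were seen. Genes were named only from the 34958 probe sets with 1 symbol in the platform's annotation, of which 34754 could be found by gene ID in RefSeq's table for GRCm38.p6, the assembly of the coordinates and promoters given. Member pairs were tested by 100000 permutations within groups. The design had foreseen 45 pairs of 10 genes, and 36 pairs of 9 could be formed. Replicate numbers are shared between groups, but same-numbered arrays did not deviate together. Precision is limited by the number of arrays. Alternatives are given in the closing section. Figures were drawn with matplotlib 3.10.9.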

Additional observations from a re-analysis of the deposited data

Results flagged for a closer look

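Of 72 combinations of a member probe set and a group of 6 arrays, 15 had an array set off from the other 5 by more than Dixon's 95% critical value, where chance gives about 1 in 20. In 9 of the 15 the array was wt replicate 1, always the highest. These were 14.42, 14.32 and 12.82 for the 3 Cbln1 probe sets, 13.69 for Car8, 15.02 and 13.78 for both Zic1 probe sets, 11.79 for Slc1a6 and 13.21 and 12.83 for both Neurod1 probe sets.

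The other 6 fell on 4 arrays. In aSYN replicate 6, Pcp2 was low at 5.39, a dim Car8 probe set was low at 5.35 and Zic1 was high at 13.91. Car8 was low in aSYN/Hsp70 replicate 3, at 9.75, and the dimmer Zic1 probe set was low in aSYN/Hsp70 replicate 4, at 10.48. The dimmest Cbln1 probe set was high in Hsp70 replicate 3, at 11.90.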

How the results depend on the processing

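No member was called under any alternative run, from the values without quantile normalisation to each array left out in turn. The number of probe sets called in aSYN against wt brains was 1, and 9 without quantile normalisation, 0 with no dim filter, 0 with only the groups' arrays, 2 with the replicate block, 217 with array weights, 0 with the sex covariate, 3 with a trended and robust variance and 35 without the 4 arrays of low weight. In aSYN/Hsp70 against aSYN brains it was 194, and under the same alternatives 43 with no dim filter, 7 with only the groups' arrays, 70 with the replicate block, 324 with weights, 89 with sex, 369 with the robust variance and 100 without the 4 arrays. Elsewhere 0 became 4 (only the groups' arrays) and 1 (without the 4 arrays) in aSYN/Hsp70 against wt, 5 (weights) and 4 (without the 4 arrays) in aSYN/Hsp70 against Hsp70, and 5 (no quantile normalisation), 81 (weights), 24 (robust variance) and 5 (without the 4 arrays) in the interaction. With each array left out, the counts were 0 to 5, 49 to 814, 0 to 1, 0 to 2 and 0 to 30 in aSYN against wt, aSYN/Hsp70 against aSYN, against wt and against Hsp70, and the interaction.

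Uncalled differences changed sign in these cases. With array weights Neurod1 in Hsp70 against wt was 0.14, and Pcp2 was -0.00700 against aSYN and -0.21 against Hsp70 in aSYN/Hsp70 brains. Pcp2 against aSYN was -0.0475 with the sex covariate. Without the 4 arrays, Zic1 in aSYN/Hsp70 against aSYN was 0.0084 and the Zic2 interaction 0.0397. With each array left out, the lowest and highest values against wt in aSYN/Hsp70, aSYN and Hsp70 brains were -0.37 to 0.21, -0.47 to 0.11 and -0.37 to 0.21 for Cbln1, -0.44 to 0.0297, -0.37 to 0.0959 and -0.27 to 0.20 for Neurod1, and -0.29 to 0.0581, -0.27 to 0.0747 and -0.33 to 0.0237 for Slc1a6. For Car8 they were -0.58 to 0.10 in aSYN and -0.64 to 0.0366 in Hsp70 brains, and for Pcp2 in aSYN/Hsp70 brains -1.59 to 0.22. All the positive ends came without wt replicate 1. Pcp2 ran from -0.28 to 0.89 in aSYN/Hsp70 against aSYN and from -0.12 to 1.31 against Hsp70, and the Zic2 interaction from -0.33 to 0.10. The 7 correlated pairs became 12 with the sex covariate and 1 without wt replicate 1, a setting chosen after seeing the data, as were the unfiltered fit and the values of the other lists without it. The replicate numbers did not pair the samples (same-number correlations -0.15 to 0.19). The causes of these changes were not tested.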
